A study of Mus musculus with 20 samples.

Results

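The genes described here are the CDK inhibitors and the D-type cyclins, 10 genes chosen by symbol: the Cip/Kip inhibitors Cdkn1a, Cdkn1b and Cdkn1c, the INK4 inhibitors Cdkn2a, Cdkn2b, Cdkn2c and Cdkn2d, and the cyclins Ccnd1, Ccnd2 and Ccnd3. All 10 were found among the 24315 genes of both expression tables, one for LSK cells (Lin-Sca1+Kit+ stem and multipotent progenitors of the bone marrow) and another for MEP (megakaryocyte-erythroid progenitors). The 20 RNA-seq libraries came from sorted bone marrow cells of C57BL/6 mice of 4 genotypes. In each cell type, 3 libraries were wild type (WT), 3 came from Dnmt3a-/- mice, 2 from Bcor-/- mice and 2 from double knockout mice lacking both genes (DKO, Bcor-/-Dnmt3a-/-), and each mouse gave both an LSK and an MEP library. Bcor encodes a subunit of a Polycomb repressive complex and Dnmt3a a de novo DNA methyltransferase. Both were deleted conditionally by Mx1-Cre, an interferon-inducible Cre activated with pIpC, which is not restricted to blood cells. The WT mice were controls without targeted genes. The label of Bcor-/- replicate 1 names more than 1 mouse, so this library may be a pool. The study describes the DKO cells as leukemic, while the labels give neither a stage nor an age.

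D-type cyclins bind and activate CDK4 and CDK6, which phosphorylate the retinoblastoma protein and so release E2F transcription factors at the entry into the cell cycle. INK4 proteins bind CDK4 and CDK6 and block their pairing with D-type cyclins, whereas Cip/Kip proteins bind cyclin-CDK complexes and inhibit mainly CDK2. In blood formation p57, encoded by Cdkn1c, is known for keeping stem cells quiescent, and exit from the cell cycle accompanies the last steps of erythroid maturation.

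Values are FPKM (fragments scaled to transcript length and to the mapped fragments of the library) as deposited, so levels can be compared between genes. The LSK and MEP tables were scaled separately, and levels set side by side across them were not tested. Genotypes were compared on log2(FPKM + 1) with limma over the genes whose mean reached 1 FPKM. A gene was called at an unadjusted p under 0.05 with a fold change above 1.5, the thresholds the study used, and Benjamini-Hochberg adjusted p values over all tested genes are given beside. The filter left 11952 genes with 9 of the 10 members in LSK, and 10933 genes with 7 members in MEP. Cdkn2b was not tested in either cell type, and Cdkn1c and Cdkn2a not in MEP. Cdkn2a passed in LSK only through its DKO values. The p values measure only the spread between these libraries, with 1 spread per gene shared by all genotypes of a cell type. A p value of DKO against WT therefore reflects the variation between DKO mice only in part. An exact permutation test of 2 DKO against 3 WT libraries cannot give a two-sided p under 0.1.

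The DKO replicates stood apart from each other. Their log2 values correlated at r = 0.849 in LSK and 0.815 in MEP across genes, against 0.971 or more between replicates of every other genotype. RNAs of other cell types also differed in DKO libraries. In LSK, 9 of 10 stem and progenitor markers were lower and 12 of 12 erythroid, 5 of 7 B lymphoid and 6 of 7 T and NK markers were called higher than in WT, where 15% of all tested genes were higher and 13.3% lower. The remaining T and NK marker was lower, and the sum of this list was 125.2 and 368 FPKM in DKO against 213.6 to 241.5 in WT, with the DKO replicates on opposite sides. The summed stem and progenitor markers were at 181 and 385 FPKM in DKO LSK against 1187 to 1393 in WT, the erythroid markers at 6623 and 21520 against 471 to 623, and the B lymphoid markers at 3419 and 1122 against 42.4 to 99.99. In MEP, 7 of 11 granulocyte and monocyte, 5 of 7 B lymphoid, 4 of 5 T and NK and 6 of 7 macrophage markers were called higher in DKO, where 18.5% of all tested genes were. With adjusted p values these counts were 7, 4, 4 and 1. Some tested markers passed the filter only through their DKO values. Examples are Adgre1 in MEP (at most 0.304 FPKM outside DKO) and Cd3e in LSK (at most 0.517). Such a marker could only come out higher in DKO, so the marker counts are a description and not a test beside the background. Of 7 megakaryocyte markers, 4 were lower in DKO LSK and 2 in DKO MEP, with sums of 17.0 and 64.6 FPKM in DKO LSK against 102.4 to 123.1 in WT and of 20.2 and 75.5 in DKO MEP against 88.0 to 343.3. The summed macrophage markers reached 806 FPKM in DKO MEP replicate 1 and 8.59 in replicate 2, against 2.10 to 3.66 in WT, while the erythroid sum reached 72950 in replicate 2 and 6082 in replicate 1, against 5186 to 7392. Of the 12 erythroid markers, 4 were called higher and 1 lower in DKO MEP, with a median log2 fold change of -0.08. Hba-a1 alone was at 55200 FPKM in DKO MEP replicate 2. Kit, a gate-defining receptor, was at 47.7 and 19.4 FPKM in DKO LSK against 148 to 174 in WT. Ly6a, which encodes Sca1, a surface antigen of the LSK gate, was at 63.5 and 220.2 FPKM in DKO LSK against 59.8 to 70.7 in WT. In DKO MEP it was at 17.8 and 1.87 against 0 to 0.790. Marker sums also lay outside the WT range in Bcor-/- LSK. Stem and progenitor markers were at 906 and 622 FPKM, erythroid markers at 916 and 1403 and T and NK markers at 455 and 619. Granulocyte and monocyte markers were at 18430 and 26310 there, against 3601 to 13660 in WT, while the B lymphoid and macrophage sums overlapped WT. The part of these RNAs in the results below was not tested, for DKO or for Bcor-/-. The DKO against WT value of each member other than Cdkn2a and Cdkn2b is given with either DKO replicate left out. Such a fit holds 1 DKO library, and its spread comes from the other genotypes. A call in it does not cover the variation between DKO mice. In RNA of sorted populations, fewer cells of a type and less RNA per cell cannot be told apart. Bcor itself was at 24.0 and 37.5 FPKM in DKO LSK and at 22.4 and 23.2 in Bcor-/- LSK, against 29.6 to 32.4 in WT, so that DKO replicate 2 lay above every WT library. In MEP it was at 19.6 and 26.7 in DKO and 19.5 and 22.4 in Bcor-/-, against 21.4 to 26.9 in WT. Dnmt3a was at 10.4 and 10.9 FPKM in DKO LSK and 11.3 to 16.9 in Dnmt3a-/- LSK, against 16.1 to 19.9 in WT. In MEP it was at 6.85 and 3.44 in DKO and 2.56 to 5.40 in Dnmt3a-/-, against 5.49 to 6.64 in WT, so that DKO replicate 1 lay above every WT library. The study describes the Bcor transcript left by the deletion as unstable. By PCR it detected no Bcor mRNA in LSK cells of Bcor-/- mice, and by western blot it found Bcor protein lost in their lineage-negative marrow cells. It describes the loss of Dnmt3a as partial in Dnmt3a-/- mice and complete only in leukemic double mutants. Values per exon were not analysed here, so levels of whole genes cannot settle whether exons were deleted. The levels of the whole genes do not show the deletion in every DKO library, and the genotypes used throughout are those of the labels.

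Among the D-type cyclins, DKO LSK had more Ccnd3 and Ccnd1 and less Ccnd2 than WT. Ccnd3 encodes cyclin D3, which controls the number of divisions of late erythroid precursors (GRCm38 chr17:47505051-47599691, plus strand). Among LSK libraries, WT had 68.0, 93.2 and 72.2 FPKM, Dnmt3a-/- 82.8, 64.2 and 82.7, Bcor-/- 86.6 and 103.9 and DKO 328.7 and 122. Both DKO libraries lay above every other LSK library, replicate 1 far more than replicate 2. The log2 fold change of DKO against WT was 1.37 (SE 0.35, adjusted p = 0.0176, limma). It was 0.66 without DKO replicate 1 and 2.08 without replicate 2. In MEP, Ccnd3 was the member with the highest level in every library. WT had 105.7, 187.9 and 105.1 FPKM, Dnmt3a-/- 147.7, 162.4 and 177.6, Bcor-/- 117.4 and 112.3 and DKO 221 and 232. The DKO values agreed closely here and lay above all others (log2 fold change 0.82, SE 0.23, adjusted p = 0.0279). The value was 0.85 without DKO replicate 1 and 0.79 without replicate 2. The call with all libraries was lost when each genotype had its own variance (unadjusted p = 0.149, limma). Ccnd3 overlaps Bysl on the opposite strand, and Ccnd1, Ccnd2, Cdkn1a and Cdkn1c also overlap annotated genes of the opposite strand. The strand setting of the counting is not given in the sources used here, so reads of such partners cannot be told apart. Bysl was at 12.7 and 9.74 FPKM in DKO LSK and at 9.21 to 10.3 in WT, and in MEP at 14.8 and 20.2 against 29.2 to 32.9.

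Ccnd1 encodes cyclin D1, a target of many growth factor pathways (chr7:144929931-144939925, minus strand). By genotype in LSK, WT had 17.2, 16.5 and 18.3 FPKM, Dnmt3a-/- 20.8, 15.4 and 18.0, Bcor-/- 19.3 and 11.2 and DKO 56.3 and 26.9. Again both DKO libraries exceeded all others, with a log2 fold change of 1.13 (SE 0.30, adjusted p = 0.0219, limma). The log2 fold change was 0.61 without DKO replicate 1 and 1.64 without replicate 2. In MEP the DKO replicates disagreed, with 34.0 FPKM in replicate 1 and 4.38 in replicate 2, against 6.59, 5.53 and 8.16 in WT. The pooled difference was 0.84 (SE 0.64, adjusted p = 0.339). It was 2.19 without DKO replicate 2 and -0.51 without replicate 1, so its sign in MEP rests on 1 library. Oraov1 (LTO1), the overlapping gene, was at 10.7 and 11.2 FPKM in DKO LSK against 9.53 to 12.1 in WT, and at 9.89 and 8.47 in DKO MEP against 8.86 to 11.4. DKO replicate 1 was also the MEP library with the high macrophage and B lymphoid sums.

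Ccnd2 encodes cyclin D2, which acts in the cycling of progenitors and B cells (chr6:127125162-127152193, minus strand). In the LSK table WT had 47.8, 51.0 and 52.4 FPKM, Dnmt3a-/- 59.0, 57.1 and 45.0, Bcor-/- 41.7 and 46.5 and DKO 17.4 and 31.0. Every DKO value was below every other LSK value. Ccnd2 fell by 1.08 on the log2 scale against WT (SE 0.22, adjusted p = 0.00557, limma), by 0.68 without DKO replicate 1 and by 1.48 without replicate 2. By genotype in MEP, WT had 23.8, 15.9 and 30.0 FPKM, Dnmt3a-/- 25.0, 17.5 and 14.9, Bcor-/- 33.8 and 32.3 and DKO 23.4 and 21.5. Against WT the DKO libraries differed by a log2 fold change of -0.003 (SE 0.27, adjusted p = 0.995, limma), and by -0.06 or 0.06 without DKO replicate 1 or 2. The DKO values lay inside the WT range and only the Bcor-/- libraries stood above it. The log2 fold change of Bcor-/- against WT in MEP was 0.54 (SE 0.27, unadjusted p = 0.0792, adjusted p = 0.978), and leaving out WT replicate 3 gave 0.74 with a call.

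**Figure D1:**
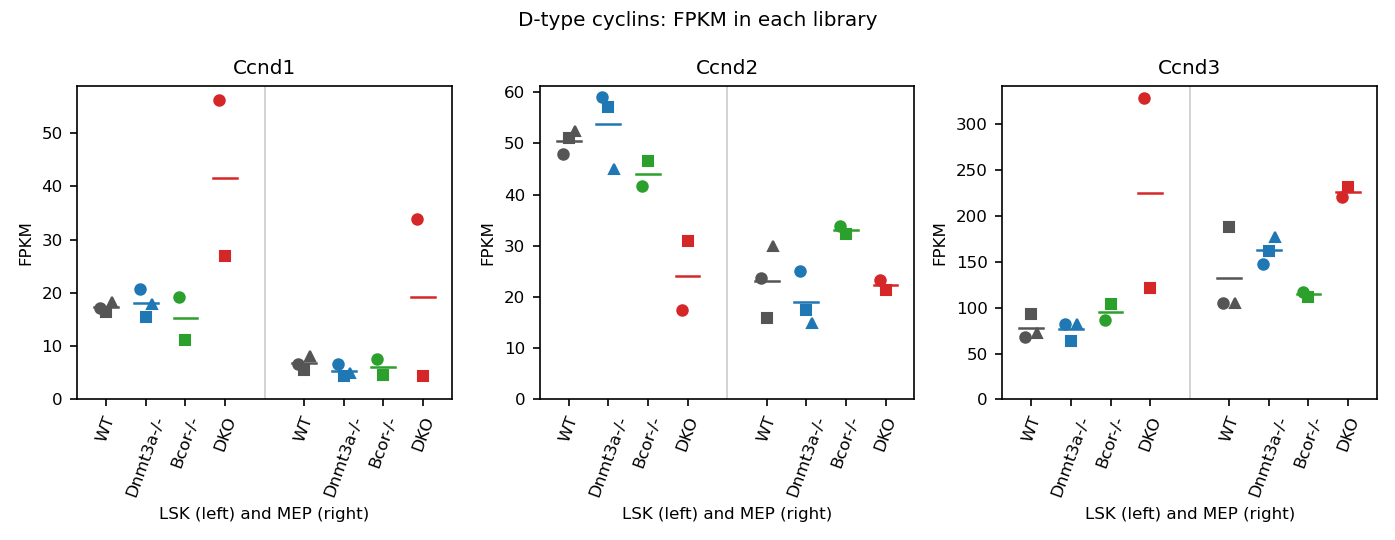
FPKM of Ccnd1, Ccnd2 and Ccnd3 in each library (y axis, linear from 0) by genotype, LSK on the left and MEP on the right of each panel. Circles, squares and triangles are replicates 1, 2 and 3 and bars are means, and in LSK both DKO points lie above all others for Ccnd1 and Ccnd3 and below all others for Ccnd2.

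Among the Cip/Kip inhibitors, Cdkn1b was higher in DKO in both cell types, while Cdkn1a was not called against WT in either with all libraries in the fit. Cdkn1b encodes p27, an inhibitor that restrains cycling in progenitors (chr6:134920401-134925513, plus strand). Among LSK libraries, WT had 21.7, 26.4 and 30.2 FPKM, Dnmt3a-/- 27.4, 24.9 and 31.7, Bcor-/- 23.5 and 17.3 and DKO 37.8 and 55.6. No library of another genotype reached the DKO values. The log2 fold change was 0.80 (SE 0.21, adjusted p = 0.0204, limma). Without DKO replicate 1 it was 1.07. Without replicate 2 it was 0.53, under the fold threshold, and with a variance per genotype the call was also lost (unadjusted p = 0.0581, limma). In the MEP table WT had 14.7, 14.5 and 16.2 FPKM, Dnmt3a-/- 13.3, 12.2 and 12.4, Bcor-/- 13.6 and 14.8 and DKO 29.5 and 113. The 8 libraries of the other genotypes were close together and DKO replicate 2 was far above replicate 1. The log2 fold change was 1.87 (SE 0.43, adjusted p = 0.0125), with 0.92 without DKO replicate 2 and 2.83 without replicate 1. DKO MEP replicate 2 was the library with the high erythroid sum.

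Cdkn1a encodes p21, a target of p53 (chr17:29090976-29100727, plus strand). By genotype in LSK, WT had 72.6, 29.3 and 35.9 FPKM, Dnmt3a-/- 37.0, 41.2 and 65.8, Bcor-/- 29.2 and 27.4 and DKO 9.05 and 40.2. DKO replicate 1 was below every other library and replicate 2 inside the WT range, which was itself wide. The log2 fold change was -1.10 (SE 0.56, adjusted p = 0.175, limma). It was -2.11 without DKO replicate 2 and -0.08 without replicate 1. After quantile normalization Cdkn1a just passed the call (unadjusted p = 0.0495, limma). Among MEP libraries, WT had 7.47, 4.12 and 9.28 FPKM, Dnmt3a-/- 5.96, 3.57 and 4.84, Bcor-/- 9.50 and 11.3 and DKO 7.28 and 27.6. One DKO library was inside the WT range and the other above it (log2 fold change 1.01, SE 0.49, adjusted p = 0.142). Without DKO replicate 1 the value was 1.91, and without replicate 2 it was 0.12. Trp53, the gene of p53, was at 76.5 and 90.3 FPKM in DKO MEP and at 113.8 to 139.2 in WT (log2 fold change -0.64, SE 0.12, adjusted p = 0.00504). In LSK it was at 84.6 and 60.3 FPKM in DKO and at 97.7 to 112.3 in WT (-0.56, SE 0.15, adjusted p = 0.022), which missed the fold threshold of the call although both DKO libraries lay below WT.

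Cdkn1c encodes p57, the inhibitor tied to stem cell quiescence (chr7:143458339-143461050, minus strand). In the LSK table WT had 3.20, 1.39 and 3.77 FPKM, Dnmt3a-/- 3.09, 3.63 and 2.59, Bcor-/- 4.30 and 1.66 and DKO 0.293 and 1.42. DKO replicate 2 was just above the lowest WT library, so the groups overlapped. The log2 fold change of -1.04 (SE 0.41) passed the call (unadjusted p = 0.0333, limma) but not with an adjusted p = 0.0914, and without DKO replicate 1 it was -0.58 and not called, against -1.49 without replicate 2. The call was also lost without WT replicate 1 (-0.93) or WT replicate 3 (-0.84), with a variance per genotype, with only WT and DKO in the fit and with the replicate number as a block. DKO replicate 1, the LSK library with the lowest Cdkn1c, also had the lowest summed stem and progenitor markers (181 FPKM), whose part in this result was not tested. In MEP the 10 values lay between 0.103 and 0.490 FPKM.

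**Figure D2:**
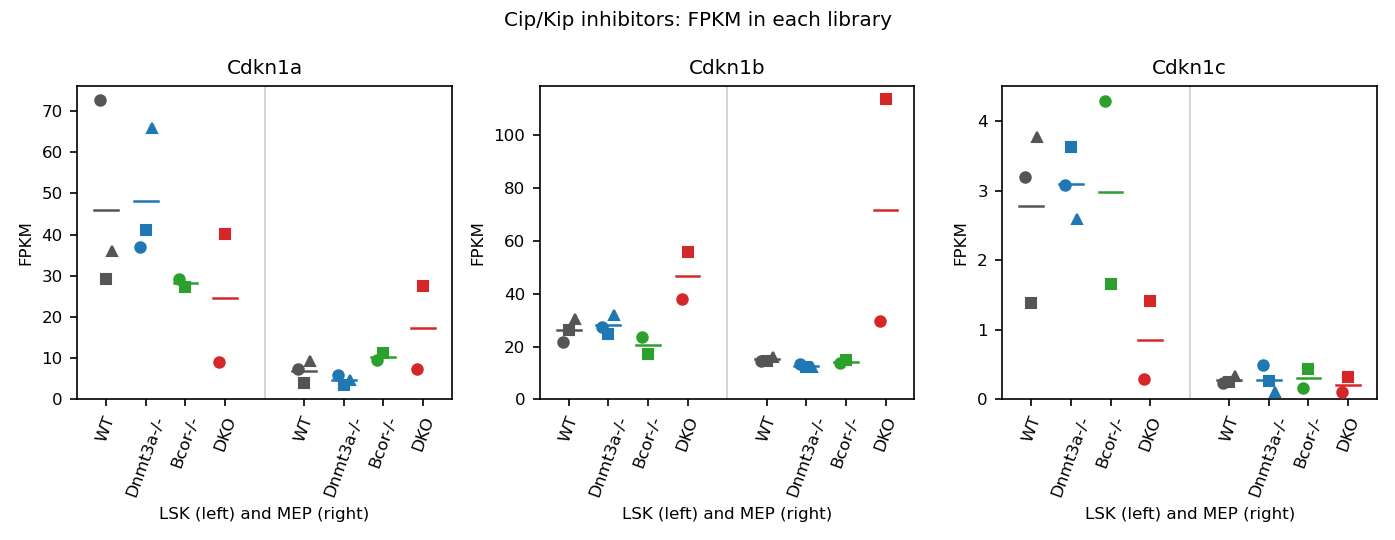
FPKM of Cdkn1a, Cdkn1b and Cdkn1c in each library (y axis, linear from 0), LSK left and MEP right in each panel, with replicates 1, 2 and 3 as circles, squares and triangles and means as bars. Both DKO points of Cdkn1b lie above all other libraries of their cell type, with 113 FPKM in MEP replicate 2.

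Among the INK4 inhibitors, Cdkn2c made up most of the RNA in every library, and Cdkn2a was listed above 0 only in DKO. Cdkn2c encodes p18, an inhibitor known to limit stem cell self-renewal (chr4:109660876-109667189, minus strand). By genotype in MEP, WT had 23.5, 32.2 and 22.0 FPKM, Dnmt3a-/- 23.3, 27.5 and 27.5, Bcor-/- 30.2 and 31.9 and DKO 50.5 and 71.3. Both DKO libraries were above all others (log2 fold change 1.202, SE 0.19, adjusted p = 0.00283, limma), and the value was 0.96 or 1.45 with either DKO replicate left out. Among LSK libraries, WT had 25.2, 28.9 and 23.1 FPKM, Dnmt3a-/- 18.8, 17.6 and 19.6, Bcor-/- 31.8 and 32.4 and DKO 53.1 and 24.9. One DKO value was inside the WT range (log2 fold change 0.49, SE 0.26, adjusted p = 0.18, limma), and the estimate was 1.02 without DKO replicate 2 and -0.04 without replicate 1. The Dnmt3a-/- libraries were all below WT in LSK, by a log2 difference of -0.44 (SE 0.23, unadjusted p = 0.0873).

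Cdkn2d encodes p19 of the INK4 group (chr9:21288410-21291407, minus strand). In the MEP table WT had 1.69, 2.48 and 2.01 FPKM, Dnmt3a-/- 2.78, 1.79 and 1.02, Bcor-/- 2.36 and 2.21 and DKO 4.87 and 15.3. The DKO libraries exceeded the rest, replicate 2 most (log2 fold change 1.69, SE 0.42, adjusted p = 0.0166, limma), and the value was 0.95 without replicate 2 and 2.42 without replicate 1. By genotype in LSK, WT had 6.08, 3.37 and 3.53 FPKM, Dnmt3a-/- 4.20, 2.86 and 3.63, Bcor-/- 3.54 and 3.30 and DKO 5.08 and 10.6. WT replicate 1 lay above DKO replicate 1, and the difference of 0.69 (SE 0.31) missed the threshold (unadjusted p = 0.0513, adjusted p = 0.125, limma). It passed without WT replicate 1 (0.92), and was 1.16 without DKO replicate 1 and 0.23 without DKO replicate 2.

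Cdkn2a is a gene with 2 annotated starts, an upstream one for p19Arf and a downstream one for p16Ink4a, and the tables give a single value for both (chr4:89274471-89294653, minus strand). The RefSeq promoters of these starts are shown because the Cdkn2a signal in DKO cannot be assigned to either of them. Each runs from 250 bases before to 50 bases after the start, 5′ to 3′ on the minus strand of GRCm38.p6, and capitals mark the E2F letters TTTCCCGC. The upstream promoter lies at chr4:89294570-89294869 and the downstream one at chr4:89282143-89282442. The deposited values were made on mm9 and carry no coordinates.
Cdkn2a upstream: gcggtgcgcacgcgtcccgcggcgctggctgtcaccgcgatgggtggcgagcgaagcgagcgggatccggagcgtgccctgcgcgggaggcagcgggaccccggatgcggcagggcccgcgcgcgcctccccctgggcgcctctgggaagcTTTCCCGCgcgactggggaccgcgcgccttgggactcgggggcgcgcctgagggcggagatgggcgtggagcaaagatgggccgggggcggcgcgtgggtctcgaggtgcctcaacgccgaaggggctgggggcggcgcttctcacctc
Cdkn2a downstream: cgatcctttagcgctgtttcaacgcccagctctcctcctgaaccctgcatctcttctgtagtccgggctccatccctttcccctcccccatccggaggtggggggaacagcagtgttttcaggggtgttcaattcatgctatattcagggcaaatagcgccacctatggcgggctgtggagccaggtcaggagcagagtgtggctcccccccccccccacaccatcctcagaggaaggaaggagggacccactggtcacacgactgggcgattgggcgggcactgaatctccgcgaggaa
The upstream window had 77% GC and 45 CpG pairs, the downstream window 60.3% and 12, and the median over all 32851 RefSeq promoters of this length was 52.7% and 7. Letters were searched on both strands in the 11 promoters found for 7 of the 10 members, as the E2F letters TTTCCCGC and TTTGGCGC, the letters AGATAA bound by erythroid zinc finger factors, and the E-box CACGTG. TTTCCCGC occurred once, at position 152 of the upstream Cdkn2a window, and in 1.07% of all promoters. CACGTG occurred once, in the promoter of Cdkn2c at chr4:109665323-109665622, and in 7.15% of all promoters. TTTGGCGC (0.514% of all promoters) and AGATAA (11.2%) were not in these windows.

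In LSK, Cdkn2a was listed at 0 in all 8 WT, Dnmt3a-/- and Bcor-/- libraries and was at 11.1 and 0.887 FPKM in DKO replicates 1 and 2. In MEP it was again listed at 0 in these 8 libraries and was at 8.23 and 0.276 FPKM in DKO. The same mouse, DKO replicate 1, was the higher in both cell types. An FPKM of 0 can be a failed estimate in these tables, since Hbb-b1 was listed at 0 in DKO MEP replicate 2 beside 55200 FPKM of Hba-a1, so no fold change is given. The LSK test gave an adjusted p of 0.0267 (limma), and a gene that passes the filter through 1 group had to differ. In the library with the highest Cdkn2a of each cell type the summed macrophage and B lymphoid markers were also at their highest. The macrophage sums were 1515 FPKM in LSK and 806 in MEP, and the B lymphoid sums 3419 and 2795. The part of either in the Cdkn2a values was not tested.

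Cdkn2b encodes p15 and lies next to Cdkn2a (chr4:89306299-89311039, minus strand). In LSK it was at 0.831 and 1.10 FPKM in DKO, at 0.139 in Bcor-/- replicate 1 and listed at 0 in the other 7 libraries. In MEP it was at 0.292 and 0.765 FPKM in DKO, at 0.120 in WT replicate 3, 0.124 in Dnmt3a-/- replicate 2 and 0.105 in Bcor-/- replicate 2, and listed at 0 elsewhere. Both DKO libraries were the highest of each cell type. Relative depths were read from the spacing of FPKM values under 0.2 (0.789 to 1.32 times WT replicate 1 in LSK, 1 to 1.61 times in MEP). On that scale the 8 Cdkn2b values above 0 were within 0.01 of whole multiples of the smallest. They came to 6.0 and 5.99 multiples in DKO LSK, 1.99 and 5.0 in DKO MEP and 1 in the others. The same calculation gave no whole multiples for most Cdkn1c values in LSK (3.66 and 9.66 among them) or for Cdkn2a in DKO LSK replicate 1 (16.6), while the 10 Cdkn1c values in MEP came to 1 to 6.02 multiples, of which 4.03 was the farthest from a whole number. Whether the smallest step is a single fragment was not tested, and this spacing was examined after the values were seen.

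**Figure D3:**
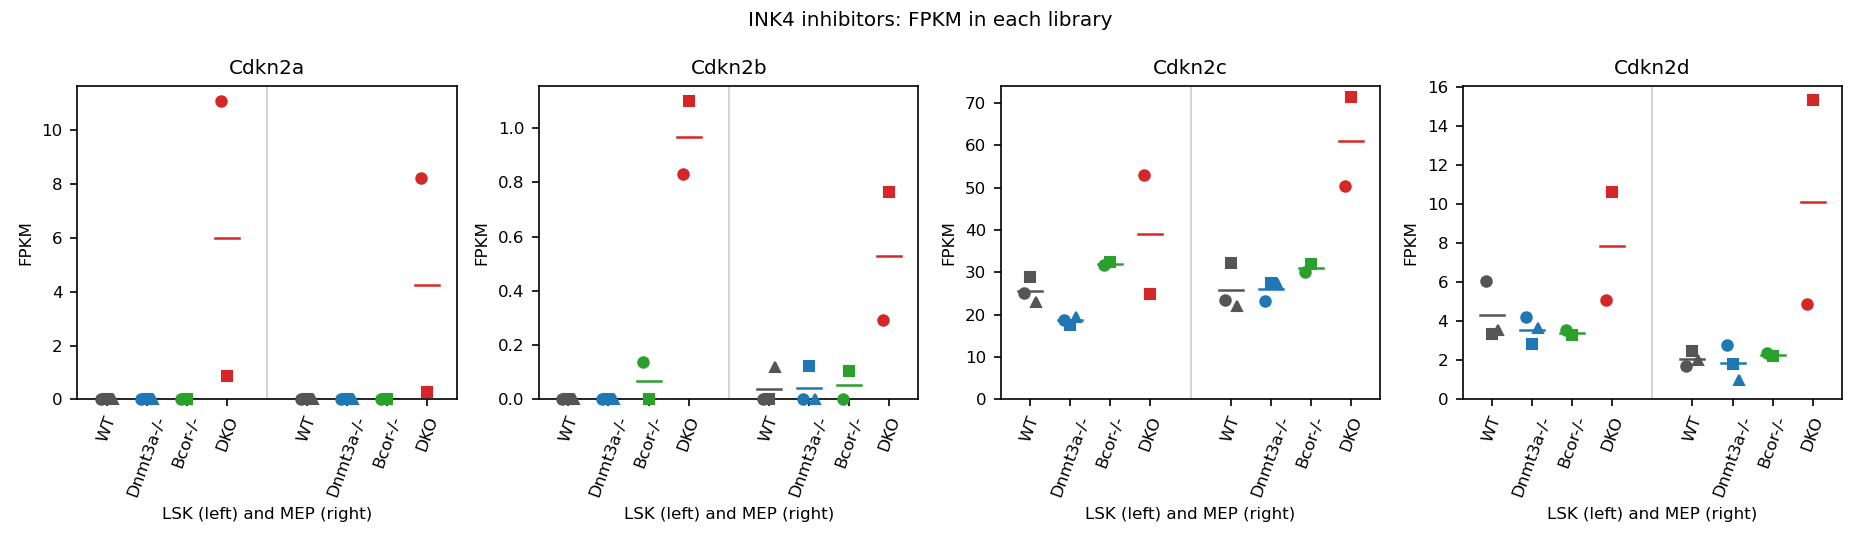
FPKM of Cdkn2a, Cdkn2b, Cdkn2c and Cdkn2d in each library (y axes, linear from 0, with a separate range per gene), LSK left and MEP right, with replicates 1, 2 and 3 as circles, squares and triangles and means as bars. Cdkn2a lies at 0 in every library except those of DKO, where replicate 1 is at 11.1 FPKM in LSK and 8.23 in MEP.

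Counted together, 6 of 9 tested members were called in DKO against WT in LSK (background 28.3% of all tested genes), and 5 of 9 with adjusted p values (23.7%). Ccnd1, Ccnd3, Cdkn1b and Cdkn2a were higher (background 15%) and Ccnd2 and Cdkn1c lower (13.3%). Cdkn2a passed the filter only through DKO, and without it the count was 5 of 8, or 4 of 8 with adjusted p values. In MEP, 4 of 7 were called (30.9%), and the same number with adjusted p values (25.2%). All of them, Ccnd3, Cdkn1b, Cdkn2c and Cdkn2d, were higher (18.5%), and 0 were lower (12.4%). With so few members, these shares are a description beside the background. With quantile-normalised libraries the all-gene median went from 0.02 to -0.08 (log2) in LSK and to -0.17 in MEP, which turned the split of higher to lower calls from 1793 and 1590 to 1565 and 1910 in LSK, and from 2019 and 1357 to 1461 and 2277 in MEP. The members called above were also called after it, in the same direction.

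**Figure D4:**
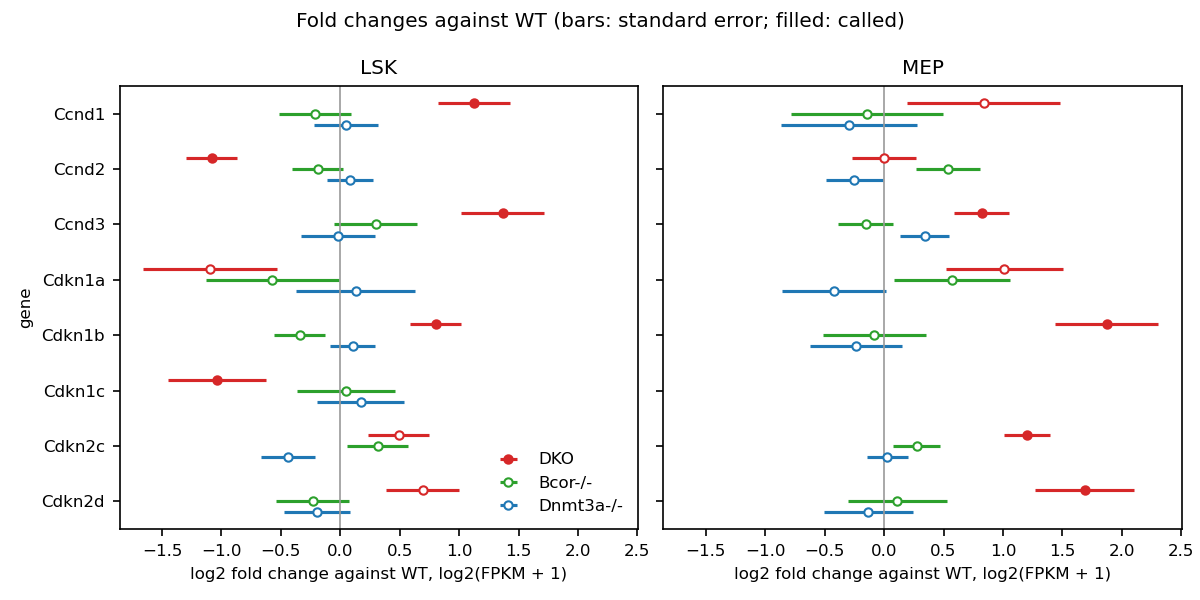
Log2 fold changes against WT on the log2(FPKM + 1) scale (x axis) of 8 members in LSK and MEP, with the standard error as bars, for DKO, Bcor-/- and Dnmt3a-/-. Filled points passed the call, and these are all DKO points, 5 in LSK and 4 in MEP. Cdkn2a and Cdkn2b are left out because of their zeros, and Cdkn1c was not tested in MEP.

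Neither single loss gave a call in any member. The study describes the deletion of Dnmt3a in Dnmt3a-/- mice as partial, so these values need not be those of a complete loss. That limit holds against WT and against DKO. For Bcor-/- against WT, 0 of 9 members were called in LSK (background 13.2%, or 5.77% with adjusted p values) and 0 of 7 in MEP (2.76%, or 0.064%). By unadjusted p under 0.05 without the fold rule the count was also 0 in both, since the lowest member values by limma were unadjusted p = 0.139 for Cdkn1b in LSK and unadjusted p = 0.0792 for Ccnd2 in MEP. For Dnmt3a-/- against WT, 0 of 9 members were called in LSK (0.443%) and 0 of 7 in MEP (0.412%), with lowest unadjusted p values of 0.0873 for Cdkn2c in LSK and 0.138 for Ccnd3 in MEP. Leaving out WT replicate 2 gave a call for Ccnd3 in Dnmt3a-/- MEP (0.62), and the WT value left out was the highest of the 3. In Bcor-/- LSK the libraries did not overlap with WT for 3 of 9 members, Cdkn1a and Ccnd2 (lower) and Cdkn2c (higher), where 54% of all tested genes did not overlap. In Bcor-/- MEP this held for 2 of 7, Cdkn1a and Ccnd2 (both higher), against 30.8%. In Dnmt3a-/- it held for 1 of 9 in LSK, Cdkn2c (lower), against 9.61%, and for 1 of 7 in MEP, Cdkn1b (lower), against 10.4%.

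Against the single losses, which share the DKO libraries with the comparison above, most members were again called in LSK with all libraries in the fit. DKO against Bcor-/- called 7 of 9 in LSK (background 30.6%; 4 of 9 against 25.2% with adjusted p values) and 4 of 7 in MEP (27.9%; 4 of 7 against 20.3%). DKO against Dnmt3a-/- called 8 of 9 in LSK (29.8%; 6 of 9 against 25.5%) and 4 of 7 in MEP (34.7%; 4 of 7 against 30%). The LSK counts include Cdkn2a, and without it they were 6 of 8 and 7 of 8, or 3 and 5 of 8 with adjusted p values. Cdkn1b was 1.14 (SE 0.23, adjusted p = 0.00677, limma) above Bcor-/- in LSK and 1.96 (SE 0.47, adjusted p = 0.0193, limma) in MEP on the log2 scale. The MEP value was 2.91 without DKO replicate 1 and 1.01 without replicate 2. The MEP call was lost with only the compared genotypes in the fit (unadjusted p = 0.0584, limma). Ccnd2 in LSK was lower than in Bcor-/- by a log2 difference of -0.89 (SE 0.24, adjusted p = 0.0213) and than in Dnmt3a-/- by -1.16 (SE 0.22, adjusted p = 0.00371). Cdkn2c in LSK was higher than in Dnmt3a-/- (0.93, SE 0.26, adjusted p = 0.023), and was not called against Bcor-/- (0.18, SE 0.28, adjusted p = 0.661). In MEP, Cdkn1a was called against Dnmt3a-/- (1.43, SE 0.49, adjusted p = 0.0476), and Ccnd3 was called against Bcor-/- (0.97, SE 0.25, adjusted p = 0.0258) but not against Dnmt3a-/- (0.48, SE 0.23, adjusted p = 0.133). The Cdkn1a call was lost without DKO replicate 2 (0.54) and without Dnmt3a-/- replicate 2 (1.27), and also with quantile normalization, with only the compared genotypes and with a variance per genotype (unadjusted p = 0.0516 to 0.0921, limma). With a variance per genotype the Ccnd3 call in MEP against Bcor-/- was lost as well (unadjusted p = 0.0887, limma). Several LSK calls rested on 1 DKO library. Against Bcor-/-, those of Ccnd2 (-0.49), Ccnd3 (0.36) and Cdkn1c (-0.63) were lost without DKO replicate 1 and that of Cdkn2d (0.46) without replicate 2. Those of Ccnd3, Cdkn1c and Cdkn2d were also lost without Bcor-/- replicate 1, and that of Cdkn2d without Bcor-/- replicate 2. Against Dnmt3a-/-, those of Cdkn2c (0.40), Ccnd1 (0.56) and Cdkn1c (-0.75) were lost without replicate 1 and those of Cdkn1b (0.43) and Cdkn2d (0.43) without replicate 2. Each of these fits held 1 DKO or 1 Bcor-/- library, so no count of called members is given for them. Cdkn2a missed the filter in LSK without DKO replicate 1.

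Whether DKO acted differently in the 2 cell types was tested on the LSK minus MEP difference of each mouse. Of 9 members tested, Cdkn1a and Ccnd2 differed at an adjusted p under 0.05, where the background was 21.7% of 12112 genes, so the share of members was near the background. The DKO effect on Cdkn1a was lower in LSK than in MEP by a log2 difference of -2.11 (SE 0.39, adjusted p = 0.00817), from -1.10 in LSK and 1.01 in MEP. For Ccnd2 the difference was -1.08 (SE 0.31, adjusted p = 0.039), from -1.08 in LSK and -0.003 in MEP. Cdkn1b followed at -1.07 (adjusted p = 0.057, limma), from 0.80 in LSK and 1.875 in MEP, and passed after quantile normalization (adjusted p = 0.0468, limma). Without DKO replicate 1 the Cdkn1b difference was -1.75. Without replicate 2 the fold changes were 0.53 in LSK and 0.92 in MEP. With a variance per genotype neither Cdkn1a nor Ccnd2 passed (adjusted p = 0.265 and 0.349, limma). In that fit 0 of all genes passed, against 2634 in the main fit. Cdkn1a passed with any WT or Dnmt3a-/- mouse left out (adjusted p between 0.00696 and 0.0306, limma). Its difference was -1.98 and -2.23 without DKO replicate 1 or 2. Ccnd2 was lost when WT replicate 1 or 2 or any Dnmt3a-/- mouse was left out (adjusted p between 0.0509 and 0.109, limma). In these fits 1200 to 2224 genes passed. The Ccnd2 difference was -0.62 and -1.54 without DKO replicate 1 or 2. The Bcor-/- effects on both genes had opposite signs in the cell types, with every Bcor-/- library below WT in LSK and above it in MEP. For Cdkn1a the nearest libraries of both groups were 29.20 and 29.26 FPKM in LSK, and 9.50 and 9.28 in MEP. The tests of these differences, added after the values were seen, gave -1.14 for Cdkn1a (SE 0.39, adjusted p = 0.167) and -0.73 for Ccnd2 (SE 0.31, adjusted p = 0.256), where 0.594% of all genes passed.

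The share of a member in its family does not change when a library is multiplied by a single factor. Ccnd3 took 53.2% ± 4.16 (SD, n = 3) of the summed D-type cyclin FPKM in WT LSK, 51.6% ± 4.95 in Dnmt3a-/- (n = 3), 61.5% ± 3.97 in Bcor-/- (n = 2) and 74.8% ± 9.79 in DKO (n = 2). Ccnd2 took 34.8% ± 2.66 in WT LSK and 4.33% and 17.2% in DKO replicates 1 and 2. In MEP, Ccnd3 took 73.4% to 89.8% in WT and 79.4% and 90.0% in DKO, so that the groups overlapped. The family sum was 402 and 180 FPKM in DKO LSK against 133 to 161 in WT, and 279 and 258 in DKO MEP against 136 to 209. In the Cip/Kip family of LSK, Cdkn1a took 51.3% to 74.5% in WT, 54.8% to 65.7% in Dnmt3a-/- and 51.2% to 59.0% in Bcor-/-, against 19.2% and 41.3% in DKO. Cdkn1b was the larger part in both DKO LSK libraries, at 80.2% and 57.2%, and in every MEP library. In DKO MEP the Cdkn1b share was 80.0% and 80.2% although the family sums differed, at 36.9 and 141.2 FPKM. Among INK4 genes, Cdkn2c took 66.4% to 96.4% over the 20 libraries, and Cdkn2a took 15.8% and 2.37% in DKO LSK and 12.9% and 0.314% in DKO MEP.

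**Figure D5:**
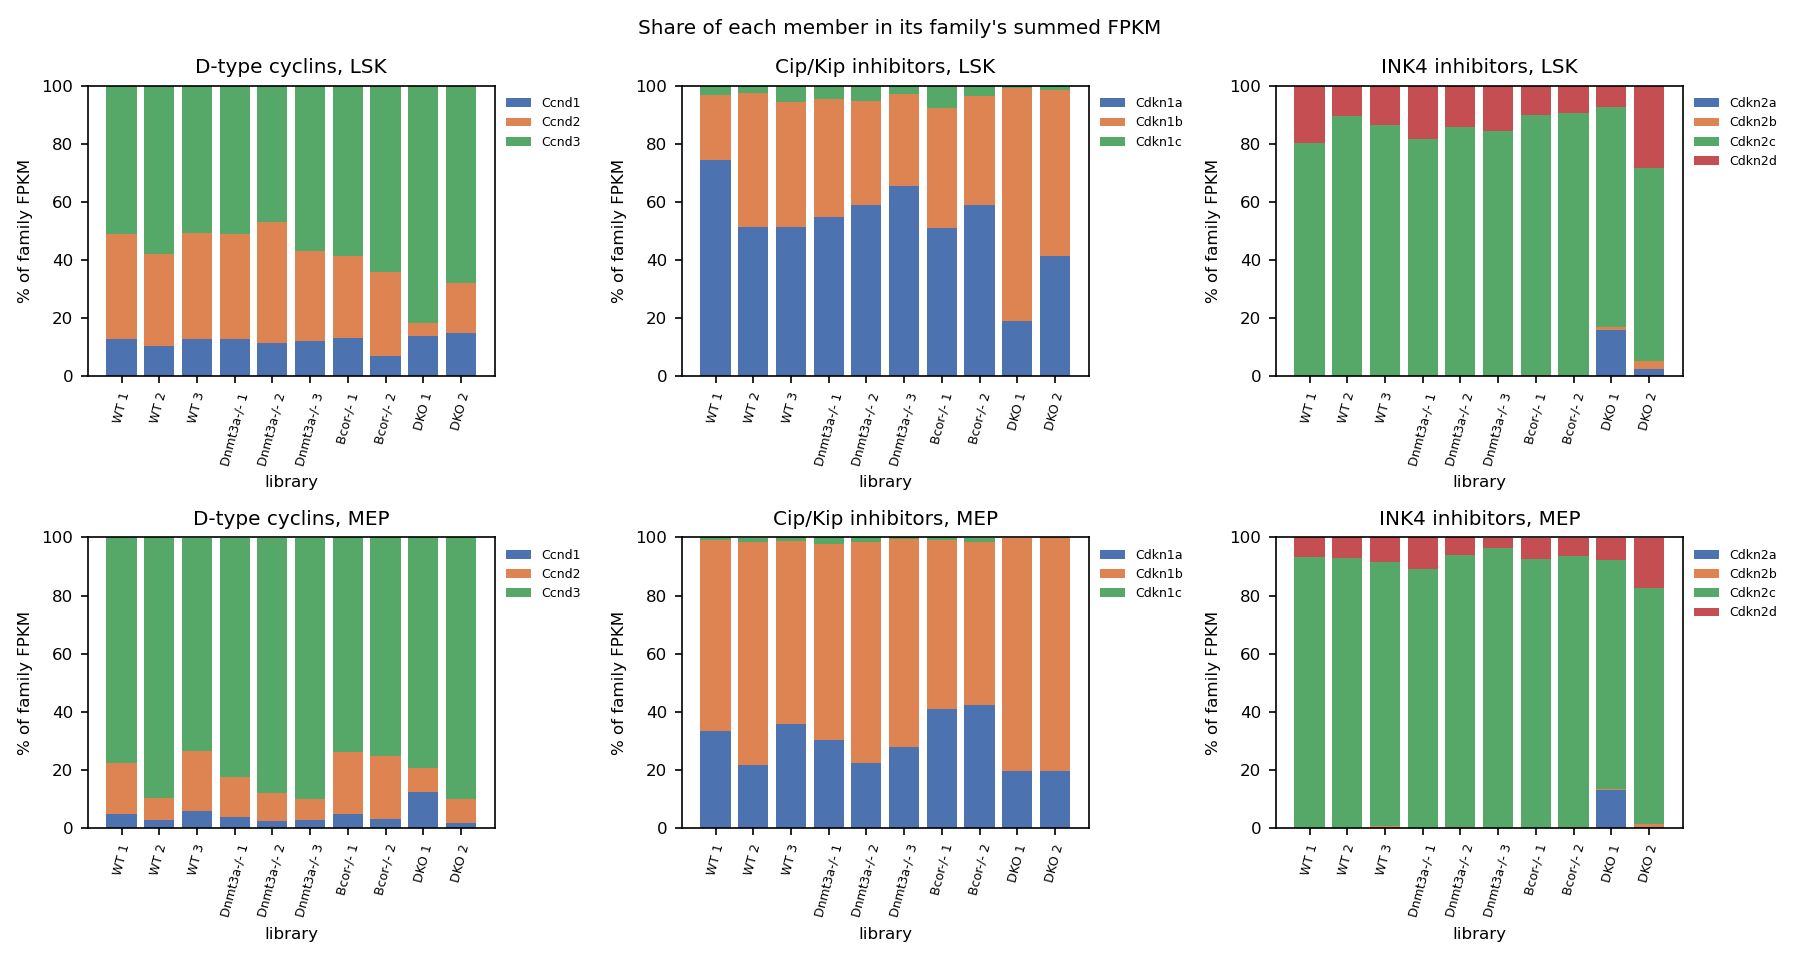
Share of each member in the summed FPKM of its family (y axis, percent from 0 to 100) in every library (x axis), LSK above and MEP below. In LSK the Ccnd2 part is smallest in the DKO bars (4.33% and 17.2%), where the Cdkn1b part is larger than the Cdkn1a part.

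Genes that act with the members were described by lists. The 17 tested CDKs and partner cyclins had 3 higher and 3 lower members in DKO LSK. In DKO MEP, 1 was higher and 1 lower. The background for each list is the share of all tested genes called in DKO, which in LSK was 15% for higher and 13.3% for lower levels and in MEP 18.5% and 12.4%. The values of pathway genes are from fits with all libraries. The median log2 fold change was -0.24 in LSK and -0.09 in MEP, against 0.02 over all genes in both. In LSK, Ccne1, the cyclin that activates CDK2, was at 38.2 and 24.3 FPKM in DKO against 5.67 to 8.01 in WT (1.98, SE 0.26, adjusted p = 0.000722). Cdc25b, a phosphatase that activates CDKs, was higher in LSK (1.32, SE 0.13, adjusted p = 0.000166) and in MEP (2.63, SE 0.58, adjusted p = 0.00999), while Wee1, a kinase that inhibits CDK1, was lower in LSK (-0.93, adjusted p = 0.0115). Cdk4, the partner of the D-type cyclins, was at 314 and 197 FPKM in DKO MEP against 448 to 600 in WT (-1.01, SE 0.20, adjusted p = 0.00612).

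Of 13 pocket proteins and E2F factors, 3 were higher (15% of all genes) and 1 lower (13.3%) in DKO LSK, with a median of -0.21, and 3 higher and 0 lower in MEP, with a median of 0.18. E2f2, an activating E2F, was at 60.4 and 90.1 FPKM in DKO LSK against 9.44 to 10.7 in WT (2.78, SE 0.17, adjusted p = 3.52e-05), and at 49.1 and 515 in DKO MEP against 15.3 to 33.5 (2.79, SE 0.79, adjusted p = 0.0283). Rb1, the retinoblastoma gene, was higher in LSK (1.45, SE 0.175, adjusted p = 0.000438) and the repressor E2f6 lower (-0.82, SE 0.10, adjusted p = 0.000512). In MEP, Tfdp2, a partner of E2F factors, was at 29.0 and 205 FPKM in DKO against 21.7 to 27.4 in WT (1.63, SE 0.63, adjusted p = 0.0775), and E2f7, a repressing E2F, was higher (0.89, adjusted p = 0.0333).

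Among 15 genes for the turnover of cyclins and inhibitors, LSK had 1 higher and 2 lower (median -0.14), against 15% and 13.3% of all genes. MEP had 1 of each (median -0.09). Fbxw7, which targets cyclin E for degradation, was higher in LSK (0.98, SE 0.15, adjusted p = 0.00154) and in MEP (0.68, SE 0.19, adjusted p = 0.0249). Cks1b, a cofactor in p27 degradation, was lower in both (-0.65, adjusted p = 0.0245 and -0.63, adjusted p = 0.0249). Skp1a, a subunit of the same ligases, was lower in LSK (-0.73, adjusted p = 0.00915). Among 16 transcription and chromatin regulators of the members, LSK had 4 higher and 2 lower (median 0.16). MEP had 2 higher and 1 lower (median 0.18). Foxo1, an activator of Cdkn1b, was at 45.8 and 36.5 FPKM in DKO LSK against 4.49 to 5.04 in WT (2.85, SE 0.18, adjusted p = 3.52e-05) and at 30.1 and 5.90 in DKO MEP against 2.45 to 3.08 (1.94, SE 0.51, adjusted p = 0.02). Bcl6, a transcriptional repressor of germinal centre B cells, was higher in both (1.09, adjusted p = 0.00202 and 1.42, adjusted p = 0.00937), and Mycn was lower in LSK (-2.68, adjusted p = 0.000224). Foxo1 and Bcl6 are also expressed in B cells, whose summed markers were above WT in both DKO LSK libraries. In MEP the sum was 2795 FPKM in DKO replicate 1 and 121.8 in replicate 2, against 30.4 to 174 in WT. The part of those cells was not tested.

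Of 16 S phase targets of E2F, 1 was higher and 0 lower in LSK (Rrm2, 1.26, SE 0.25, adjusted p = 0.0057), and 0 higher and 1 lower in MEP (Gins2, -0.66, SE 0.13, adjusted p = 0.00668). Their medians were -0.14 and -0.15. Both DKO replicates lay outside the WT range of the summed S phase genes in LSK, on opposite sides, at 2073 and 1143 FPKM against 1516 to 1646. In MEP replicate 2 was the higher, at 3190 against 2150 in replicate 1 and 2450 to 3178 in WT. Of 12 mitosis genes, 1 was higher in LSK (Mki67, 0.72, SE 0.16, adjusted p = 0.0102) and 0 in MEP, with 0 lower in either and medians of -0.22 and 0.13. Their sums in LSK were 1037 and 516 FPKM in DKO against 712 to 828 in WT, again on opposite sides, and in MEP 952 and 2030 against 995 to 1262.

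For each tested member, the gene with the most similar log2 values over the 10 libraries of a cell type was found by Pearson correlation, as a description in which the DKO libraries weigh heavily. In LSK these were Tmem230 for Cdkn1a (r = 0.979), Tgfbr2 for Cdkn1b (0.956), Klf12 for Cdkn1c (0.933), Ctsd for Cdkn2c (0.970), Irs2 for Cdkn2d (0.965), Hdac9 for Ccnd1 (0.974), P2rx1 for Ccnd2 (0.984), Gm5150 for Ccnd3 (0.982) and 4921525O09Rik for Cdkn2a (0.9997, set by its DKO values). In MEP they were Nfatc2 for Cdkn1a (0.967), Ypel5 for Cdkn1b (0.996), Whsc1 for Cdkn2c (0.978), Gch1 for Cdkn2d (0.978), Csrp2 for Ccnd1 (0.987), Grb2 for Ccnd2 (0.960) and Chmp4b for Ccnd3 (0.958). Over the 8 libraries without DKO, the correlation was 0.970 for Cdkn1a with Tmem230 in LSK and 0.972 for Ccnd2 with Grb2 in MEP, and 0.700 for Cdkn1b with Ypel5.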

How the data were processed

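Polyadenylated RNA of FACS-sorted LSK and MEP cells was sequenced on Illumina libraries. The authors deposited FPKM per gene in a table for each cell type. The submitters' processing notes name STAR 2.5.1b, SAMtools 1.9, Cufflinks 2.2.1 and the mm9 build, while annotation and strandedness are not given in the sources used here. Read counts are not given, so depth is unknown, and no counting error was computed. Groups and replicates came from the labels.

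R 4.3.3 with limma 3.58.1 fitted 1 mean per genotype in each cell type on log2(FPKM + 1), with a mean-variance trend, 6 residual degrees of freedom and two-sided tests, for genes whose mean reached 1 FPKM. The scripts were tested on simulated data. The difference between cell types was fitted on the LSK minus MEP value of each mouse. Pathway genes are named if among the 3 largest called changes of their list without overlap of DKO and WT. Alternatives were another pseudocount (0.1), filter, scaling, block, trend, variance per genotype, thresholds and leaving out each library. Members, lists and tests were chosen with earlier results of these data known. Promoters are from RefSeq (GRCm38.p6), gene positions from GENCODE (GRCm38). Figures were drawn with matplotlib.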

Additional observations from a re-analysis of the deposited data

Results flagged for a closer look

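The DKO effect on Cdkn1a differed between the cell types by -2.11 on the log2 scale (LSK minus MEP, adjusted p = 0.00817, limma), and that on Ccnd2 by -1.08 (adjusted p = 0.039). Cdkn1a was lower than WT in 1 of 2 DKO LSK libraries and higher than every WT library in 1 of 2 DKO MEP libraries, and Ccnd2 was lower in 2 of 2 DKO LSK libraries and inside the WT range in MEP. These are 2 of 9 members, where 21.7% of all genes passed. With a variance per genotype neither passed (adjusted p = 0.265 and 0.349, limma), and 0 of all genes did, against 2634 in the main fit. Ccnd2 was also lost without WT replicate 1 or 2 or any Dnmt3a-/- mouse, where 1200 to 2224 genes passed. Its difference was -0.62 without DKO replicate 1 and -1.54 without replicate 2. For Cdkn1a and Ccnd2 every Bcor-/- library lay below WT in LSK and above it in MEP, where the libraries of 54% and 30.8% of all genes did not overlap. Their differences were -1.14 for Cdkn1a (adjusted p = 0.167) and -0.73 for Ccnd2 (adjusted p = 0.256), neither of which passed the correction. For Cdkn1a the separation rests on 29.20 against 29.26 FPKM in LSK and 9.50 against 9.28 in MEP. Marker sums of several cell types also differed from WT in Bcor-/- LSK, and their part in these values was not tested.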

How the results depend on the processing

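With other settings, 793 member fold changes kept their direction and their side of the threshold, 40 lost and 5 gained a call and 2 changed sign. With 1 library left out these were 324, 20, 14 and 28. The numbers of called members that moved by over 1.5 times were, in LSK, DKO against Bcor-/- (7) with a minimum of 5 FPKM (4), only the compared genotypes (3) or adjusted p values (4), and DKO against Dnmt3a-/- (8) with a minimum of 5 FPKM, a variance per genotype or a fold above 2 (5 each). In MEP, DKO against Bcor-/- (4) gave 2 with only the compared genotypes and 2 with a fold above 2. All-gene calls in these LSK fits against Bcor-/- were 2737 of 9497, 2540 of 11952 and 3015 of 11952. Against Dnmt3a-/- they were 2522 of 9497, 2633 of 11952 and 2084 of 11952. In MEP they were 2010 and 1525 of 10933. The difference of the DKO effect between cell types (2) gave 0 with a variance per genotype, where 0 of all genes passed (2634 in the main fit). With 1 WT library left out, DKO against WT called 5 to 6 of 9 members in LSK (all genes 3108 of 11973 to 3335 of 11969). In MEP it called 4 of 7 (all genes 2845 of 10993 to 3360 of 10960). With Dnmt3a-/- replicate 2 left out, DKO against Dnmt3a-/- lost Cdkn2d in LSK and Cdkn1a in MEP. All-gene calls there were 3306 of 11983 and 3380 of 10996. Leaving out Dnmt3a-/- replicate 1 or 3 lost none. No count is given for fits that held 1 DKO or Bcor-/- library. Calls gained by the single losses were those of Ccnd2 and Ccnd3 in MEP given above. With 1 WT or Dnmt3a-/- mouse left out, the DKO effect between cell types kept Cdkn1a, and kept Ccnd2 only without WT replicate 3. In these fits 1200 to 2224 genes passed. The cause was not tested.

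Signs turned with 1 library left out, in log2 fold changes. In LSK, DKO against WT, Cdkn2c ranged from -0.039 to 1.02. For Bcor-/- against WT in LSK, Cdkn1c ranged from -0.45 to 0.55 and Ccnd1 from -0.58 to 0.15. For Dnmt3a-/- against WT in LSK, Cdkn1a ranged from -0.13 to 0.51, Cdkn1b from -0.019 to 0.21, Cdkn1c from -0.13 to 0.37, Cdkn2d from -0.32 to 0.025, Ccnd1 from -0.054 to 0.15 and Ccnd3 from -0.11 to 0.12. For DKO against Bcor-/- in LSK, Cdkn1a ranged from -1.54 to 0.49 and Cdkn2c from -0.35 to 0.71. In MEP, DKO against WT, Ccnd1 ranged from -0.51 to 2.19 and Ccnd2 from -0.24 to 0.20. For Bcor-/- against WT in MEP, Ccnd1 ranged from -0.45 to 0.17 and Ccnd3 from -0.29 to 0.12. For Dnmt3a-/- against WT in MEP, Cdkn2c ranged from -0.078 to 0.19 and Cdkn2d from -0.36 to 0.10. For DKO against Bcor-/- in MEP, Ccnd1 ranged from -0.37 to 2.33 and Cdkn1a from -0.45 to 1.33, and against Dnmt3a-/- Ccnd1 from -0.22 to 2.48. In the difference between cell types, Ccnd3 ranged from -0.20 to 1.29, Ccnd1 from -0.54 to 1.12 and Cdkn2c from -1.49 to 0.066.

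With the replicate number as a block, the called members in LSK were 5 against WT, 6 against Bcor-/- and 7 against Dnmt3a-/-, and 4 in each MEP comparison. All-gene calls in these fits were 3225, 3538 and 3422 of 11952 in LSK, and 3385, 3031 and 3805 of 10933 in MEP. The block turned Ccnd2 in DKO MEP against WT to 0.0196 and Cdkn2d in Bcor-/- MEP against WT to -0.0066. Libraries with the same number correlated at -0.058 to 0.087 in LSK and -0.193 to 0.336 in MEP, with 0 of 13 pairs over 0.1 in LSK and 8 of 13 in MEP, where 3 of 24 pairs of different numbers were over 0.1. These correlations were taken after each genotype mean was removed, so groups of 2 libraries mirror each other and the pairs are not independent. The counts therefore cannot decide whether the numbers pair the libraries, and the main fit used no block. Depth is unknown in FPKM, which limits what the low values of Cdkn1c in MEP, Cdkn2a and Cdkn2b can show, and 2 libraries per group limit every Bcor-/- and DKO value.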
